A study of Mus musculus with 4 samples.

Results

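Imprinted genes are expressed mainly from 1 parental copy, and most of them lie in clusters. The measurements below cover 37 such genes in mouse embryonic stem cells (ESCs), out of 14382 genes in the deposited table. Members were taken by name from a list of 40 imprinted genes in 17 clusters or single loci. Of these names, 32 matched a gene symbol in the table and 5 (H19, Meg3, Rian, Mirg and Kcnq1ot1) matched by Entrez number through RefSeq. The other 3, Kcnq1, Airn and Rasgrf1, were not analysed here.

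The mark behind imprinting is DNA methylation laid down in 1 parental germline at a control region and copied at each division by DNMT1 and UHRF1. ZFP57 and TRIM28 bind the methylated copy and protect it in ESCs and the early embryo. Control regions then act on whole clusters, through a long noncoding RNA (Kcnq1ot1, Airn), through the insulator protein CTCF (H19 and Igf2) or as the promoter of a gene (Mest, Peg3, Peg10, Plagl1). The parental copy named for a gene below is textbook background, since no value here separates the copies.

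The cells were ESCs of the genotype Arid1af/f:CreERT2, in which both alleles of Arid1a are floxed and a fusion of Cre recombinase with an oestrogen receptor domain, CreERT2, is switched on by 4-hydroxytamoxifen (4-OHT). ARID1A is a DNA-binding subunit of the BAF (SWI/SNF) chromatin remodelling complex. The 2 control libraries came from cells given ethanol and the other 2 from cells given 1 µM 4-OHT, each for 24 hours, and RNA was taken 72 hours after treatment. Both groups carried the floxed alleles and CreERT2, so an effect of 4-OHT or of Cre itself cannot be told apart from loss of Arid1a. The cells grew in serum with LIF on irradiated embryonic fibroblast feeders, whose RNA can be part of each library. Neither the promoter that drives CreERT2 nor the number of clones in the line is given in the sources used here. Nothing in the labels says whether the replicates were grown apart, and the p-values then cover only the spread among these 4 samples, possibly technical.

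Values are CPM, counts of reads put on a common scale by each library's size. The table holds the mean of each group, and the CPM of each library was recovered from those means. Letter A marks the deeper library of each group and B the other, and neither can be matched to a replicate number of the labels. Recovered reads came to 6258499 (A) and 6195567 (B) for ethanol, and to 7012664 (A) and 6188378 (B) for 4-OHT. A gene was called higher or lower where limma's adjusted p on log2(CPM + 1) was under 0.05. Arid1a, the targeted gene, was at 517 and 502 CPM in ethanol and at 241 and 213 CPM with 4-OHT, 2.24-fold lower (adjusted p = 7.27e-06). ESC markers were present throughout: all 13 on the list were measured, and their summed level was 5443 and 5338 CPM in ethanol and 5646 and 5728 CPM with 4-OHT. Single ESC markers did change: Nanog, Tdgf1 and Fgf4 rose, and Sox2 and Esrrb fell.

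The promoters of 4 members picked by their results are shown: Mest and Copg2 rose together, while Dlk1 rose and its neighbour Meg3 did not. Whether promoter sequence has a part in these changes was not tested. Each is 300 bases from RefSeq (GRCm38.p6), from 250 bases before to 50 after a transcript start, 5′ to 3′ on the strand of the gene. Capitals mark TGCCGC on either strand, the core of the motif that ZFP57 binds when methylated. The Mest window is chr6:30737800-30738099 on the plus strand, the Copg2 window chr6:30896745-30897044 on the minus strand, the Dlk1 window chr12:109452573-109452872 on the plus strand and the Meg3 window chr12:109540746-109541045 on the plus strand.
Mest: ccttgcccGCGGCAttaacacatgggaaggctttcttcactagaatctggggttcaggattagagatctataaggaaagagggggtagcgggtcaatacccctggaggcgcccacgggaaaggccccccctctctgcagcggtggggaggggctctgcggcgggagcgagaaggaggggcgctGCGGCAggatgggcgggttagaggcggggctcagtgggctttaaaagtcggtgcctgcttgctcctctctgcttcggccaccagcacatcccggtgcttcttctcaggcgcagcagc
Copg2: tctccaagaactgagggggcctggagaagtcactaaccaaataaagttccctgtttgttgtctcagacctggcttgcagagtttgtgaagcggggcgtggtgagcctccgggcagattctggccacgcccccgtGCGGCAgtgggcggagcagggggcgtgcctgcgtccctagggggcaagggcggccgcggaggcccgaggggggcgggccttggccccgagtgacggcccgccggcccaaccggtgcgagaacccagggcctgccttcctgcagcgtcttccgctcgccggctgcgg
Dlk1: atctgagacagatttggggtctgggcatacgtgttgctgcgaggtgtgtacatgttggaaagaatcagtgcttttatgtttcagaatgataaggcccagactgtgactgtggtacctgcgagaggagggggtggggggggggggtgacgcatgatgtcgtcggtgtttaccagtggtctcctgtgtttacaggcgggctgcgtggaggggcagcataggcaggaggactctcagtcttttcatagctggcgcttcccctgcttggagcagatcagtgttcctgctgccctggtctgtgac
Meg3: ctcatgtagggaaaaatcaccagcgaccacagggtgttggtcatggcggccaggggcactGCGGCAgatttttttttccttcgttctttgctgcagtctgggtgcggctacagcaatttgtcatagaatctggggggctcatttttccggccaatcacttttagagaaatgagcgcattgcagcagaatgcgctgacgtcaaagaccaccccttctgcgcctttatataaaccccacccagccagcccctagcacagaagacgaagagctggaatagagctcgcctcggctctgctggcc
In the Mest window the motif was found 2 times, at positions 9 and 184 counted from 1 at the 5′ end. The Copg2 window had 1 match, at position 135, and the Meg3 window 1, at position 61. No match lay in the Dlk1 window or in the upstream Mest promoter (chr6:30733256-30733555). The promoter table held 49 windows of 31 members. TGCCGC was in 12 of the 49 (24.5%), against 11.6% of all 32851 promoters. Some members contribute several windows, and some of the windows overlap. CCATNTT, the core of the YY1 motif, was in 7 (14.3%) against 16.1% of all. A 14-base core of the CTCF motif was in none, against 0.0365% of all. With a motif this rare, its absence from 49 windows says nothing about CTCF at these genes. H19 was among the members with no window, and control regions outside promoters were not searched. All 3 motifs were searched on both strands, and in 44 of all promoters a TGCCGC match overlapped another of them. The median ratio of observed to predicted CpG was 0.605 in the members' windows and 0.384 in all. TGCCGC itself contains a CpG, and its share was not adjusted for CpG content.

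Several members are also hosts of microRNAs, and for 2 that changed, Mest and H19, the mature sequences are given so that the hosted product can be read beside the host. The seed, bases 2 to 8, is in capitals, and the microRNAs themselves were not measured here.
miR-335-5p: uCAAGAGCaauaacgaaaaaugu
miR-335-3p: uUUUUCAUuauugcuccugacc
miR-675-5p: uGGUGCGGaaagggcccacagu
miR-675-3p: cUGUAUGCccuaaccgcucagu
The miR-335 pair lies in Mest and the miR-675 pair in H19, and no 2 of these seeds are the same. The noncoding RNAs Meg3, Rian and Mirg host 2, 3 and 10 of the microRNA genes in the RefSeq table.

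Of the 37 members, 12 (32.4%) passed the test, 9 higher and 3 lower with 4-OHT. Over all 14376 genes tested the share was 9.46%, with 5.24% higher and 4.22% lower. Called genes are more frequent among well expressed genes: at a mean of at least 100 CPM, 323 of 2647 genes were called (12.2%), against 7 of the 16 members at that level. The members that rose were Mest, Dlk1, Copg2, Magel2, Phlda2, Plagl1, Grb10, Igf2 and Cdkn1c, and those that fell were H19, Cd81 and Rian. The median log2 fold change was -0.02, beside -0.0016 over all genes, and 17 members were above 0 and 20 below. Groups did not overlap for 27 members, with 14 above ethanol and 13 below. The same held for 52.1% of all genes, 26.4% above and 25.7% below. Without 4-OHT library A or B, limma kept no call of any gene and so none of the members, while edgeR still made calls. That group then holds 1 library. The log2 fold change was 1.26 and 1.35 for Mest in these runs, and -0.33 in both for Rian. In bulk RNA, fewer cells expressing a gene and less RNA per cell cannot be told apart.

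**Figure D1:**
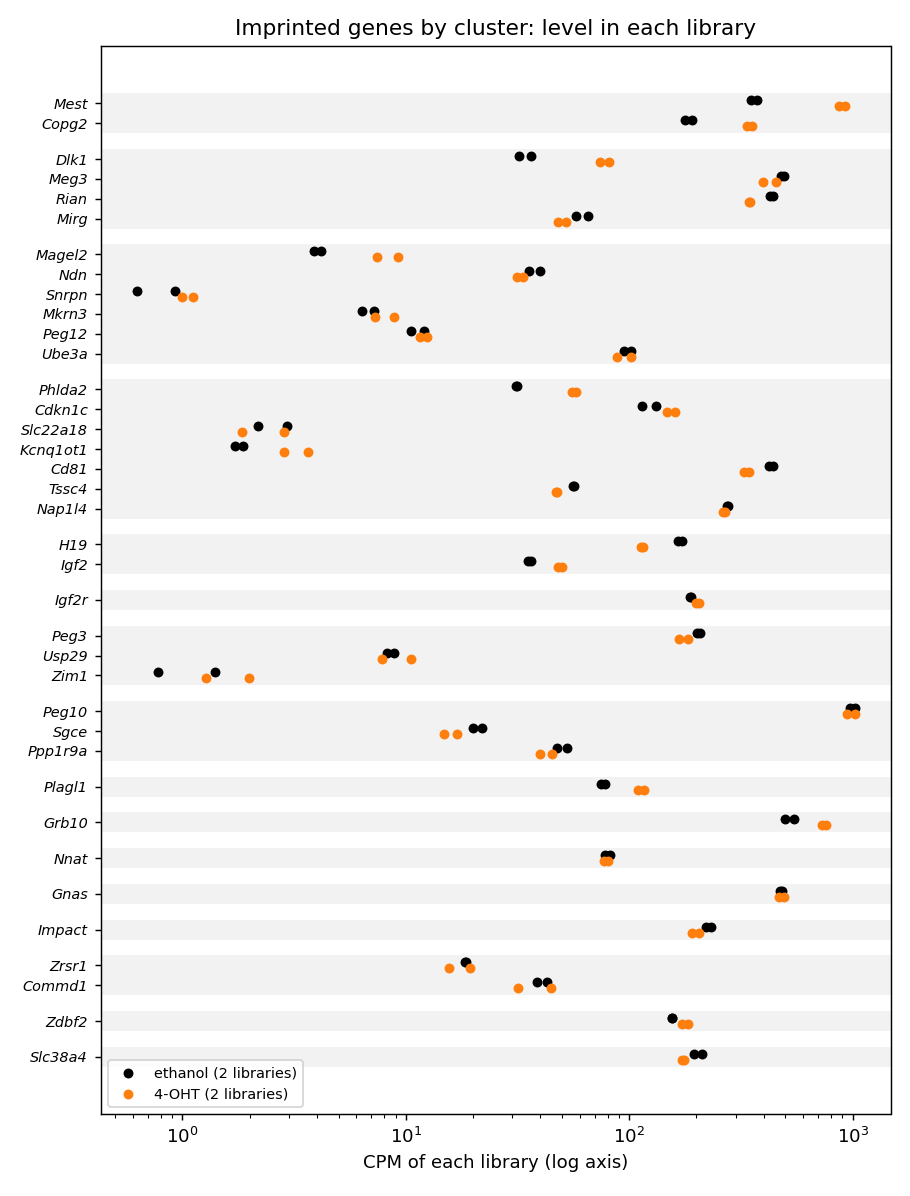
CPM of each of the 37 imprinted genes in the 2 ethanol libraries (black) and the 2 4-OHT libraries (orange), on a log axis, with shaded bands joining genes of 1 cluster or locus. Mest, Copg2 and Dlk1 stand clear of their ethanol values on the right, and H19 and Cd81 on the left.

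The largest change of any member was that of Mest, which encodes a hydrolase-like protein and is expressed from the paternal copy (chr6:30733506-30748466, plus strand). It was at 350.45 and 373 CPM in ethanol and at 923 and 868 CPM with 4-OHT. Its convergent neighbour Copg2 (chr6:30747554-30896815, minus strand), a coat protein of Golgi vesicles with maternal bias in some tissues, was at 177 and 192 CPM in ethanol and at 354 and 338 CPM with 4-OHT. In both genes the groups were far apart relative to the gap between libraries of a group. Mest rose 2.48-fold (log2 fold change 1.31, SE 0.06, adjusted p = 2.84e-06) and Copg2 1.88-fold (0.91, SE 0.06, adjusted p = 2.27e-05). They thus moved in 1 direction, and Mest by more: the difference of the log2 fold changes was 0.40 (SE 0.08). The annotated genes overlap by 913 bases at their 3′ ends, and how the counting used strand is unknown here, so reads in the overlap may be credited to either. Within 250 kb, 4 other genes were measured and none was called by limma. The nearest, Cep41, a centrosomal protein gene 22988 bases from Mest, was at 10.1 and 10.1 CPM in ethanol and 14.5 and 14.8 CPM with 4-OHT (log2 fold change 0.49, SE 0.14, adjusted p = 0.0595; edgeR adjusted p = 0.0179). Klf14, an imprinted transcription factor gene beyond Copg2, was at 0.465 and 0.936 CPM and at 1.56 and 1.75 CPM (adjusted p = 0.108).

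The Dlk1-Dio3 cluster on chromosome 12 had 1 rise, that of the paternally expressed Dlk1, while the maternally expressed RNAs Meg3, Rian and Mirg lay below their ethanol level. Dlk1 (chr12:109452485-109463336), which encodes a membrane protein related to Notch ligands, was at 32.2 and 36.3 CPM in ethanol and at 81.3 and 73.9 CPM with 4-OHT. It rose 2.26-fold (log2 fold change 1.16, SE 0.09, adjusted p = 6.41e-05), with no overlap of the groups. Meg3 (chr12:109540996-109571729), a long noncoding RNA, was at 492 and 479 CPM in ethanol and at 397 and 453 CPM with 4-OHT. Its log2 fold change of -0.19 (SE 0.07) did not pass with limma (adjusted p = 0.103) and did with edgeR (adjusted p = 0.0178). Rian (chr12:109603945-109661716), host of small nucleolar RNAs, was at 426 and 442 CPM in ethanol and at 345 and 346 CPM with 4-OHT. Rian fell by 0.33 on the log2 scale (SE 0.05, adjusted p = 0.00359). A small nucleolar RNA gene inside Rian, DQ267101, was at 163 and 171 CPM and then at 128 and 136 CPM (log2 fold change -0.34, adjusted p = 0.00741), and reads of the 2 features may be shared. Mirg, a microRNA host, was at 65.4 and 57.6 CPM in ethanol and at 48.2 and 52.3 CPM with 4-OHT (log2 fold change -0.28, adjusted p = 0.0778; edgeR adjusted p = 0.0186). The other paternally expressed genes of the cluster did not pass. Rtl1, derived from a retrotransposon, was at 4.03 and 4.37 CPM in ethanol and at 4.83 and 3.66 CPM with 4-OHT (adjusted p = 0.995), and Dio3, a thyroid hormone deiodinase gene, was at 0.62 and 1.87 CPM and at 1.28 and 1.75 CPM (adjusted p = 0.711). Their groups overlapped. All 3 maternal RNAs were lower in both 4-OHT libraries than in either ethanol library, as were 25.7% of all genes. Of the 3, only Rian passed with limma or with DESeq2. The difference of Dlk1 and Meg3 was 1.35 (SE 0.11), the widest of the neighbouring pairs. It was 1.19 without 4-OHT library A and 1.51 without 4-OHT library B.

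**Figure D2:**
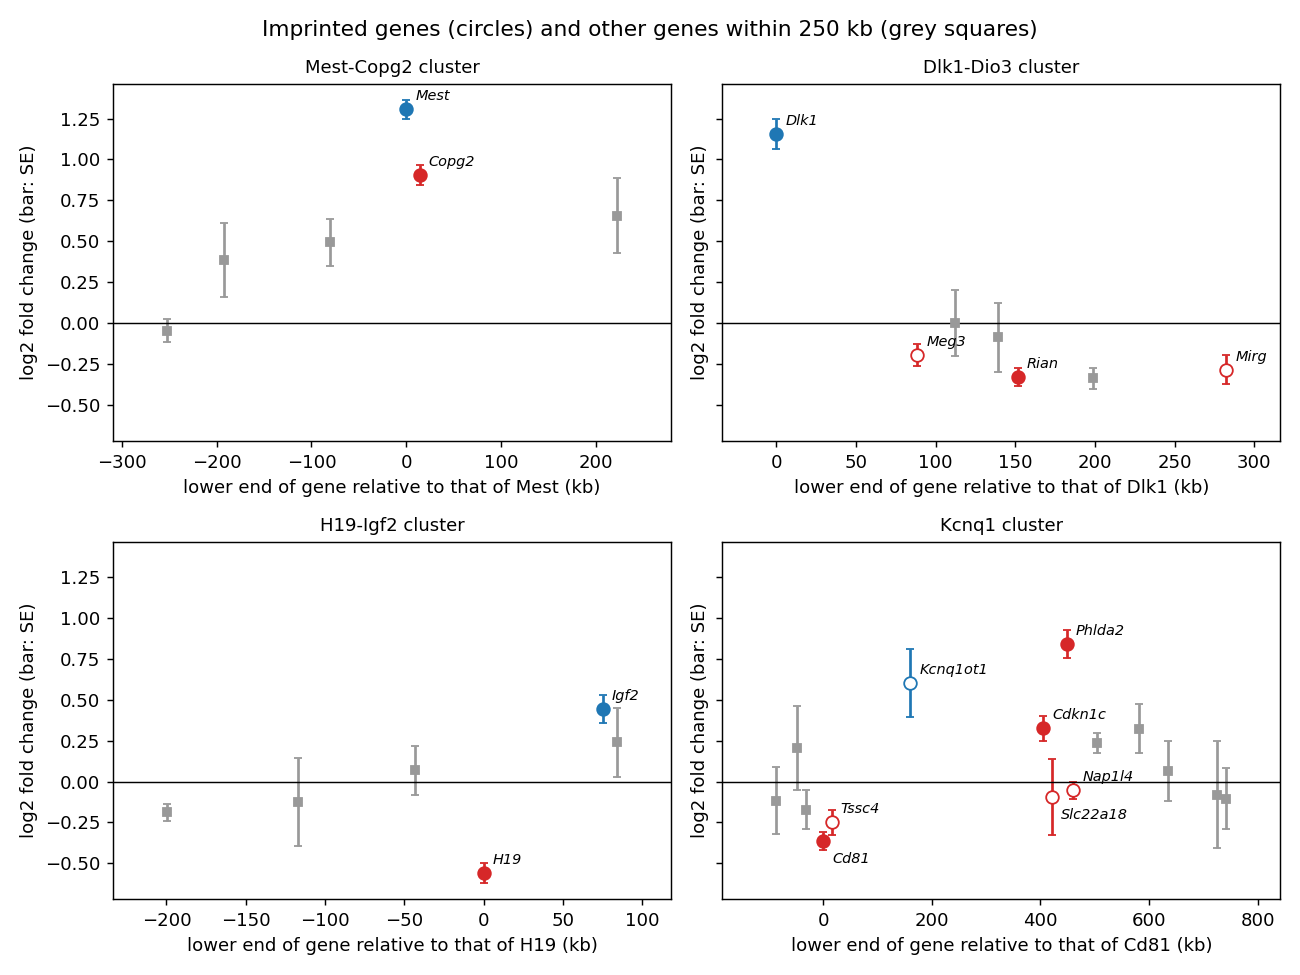
Change on the log2(CPM + 1) scale, 4-OHT minus ethanol (bars give the SE), against the position of each gene in kb, for 4 clusters. Circles are members, blue where the paternal and red where the maternal copy is expressed, filled where the adjusted p was under 0.05, and grey squares are other measured genes within 250 kb. Mest and Copg2 sit at the top of their cluster, Dlk1 stands apart from Meg3, Rian and Mirg, and H19 and Igf2 lie on opposite sides of 0.

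H19 and Igf2 share a control region and enhancers on chromosome 7, and they changed in opposite directions. H19 (chr7:142575530-142578146), a maternally expressed noncoding RNA, was at 172 and 165 CPM in ethanol and at 113 and 116 CPM with 4-OHT. Igf2 (chr7:142650768-142666816), the paternally expressed fetal growth factor, was at 35.3 and 36.2 CPM in ethanol and at 49.9 and 48.0 CPM with 4-OHT. Neither gene's groups overlapped. H19 fell 1.48-fold (log2 fold change -0.56, SE 0.06, adjusted p = 0.000428) and Igf2 rose 1.37-fold (0.44, SE 0.09, adjusted p = 0.00922). The Igf2 call was lost with DESeq2. The difference between them, H19 minus Igf2, was -1.001 (SE 0.10). The row of Igf2os, an RNA on the other strand that overlaps Igf2 by 7137 bases, stayed between 2.17 and 3.34 CPM in the 4 libraries (adjusted p = 0.546). Igf2r, the receptor that clears IGF2 and is expressed from the maternal copy in most tissues, was at 187 and 189.85 CPM in ethanol and at 205 and 199.95 CPM with 4-OHT (log2 fold change 0.10, SE 0.06, adjusted p = 0.29).

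In the Kcnq1 cluster, also on chromosome 7, 7 members were measured, of which 2 rose and 1 fell. Phlda2 (chr7:143501545-143503145), a pleckstrin-domain gene that limits placental growth, was at 31.0 and 31.4 CPM in ethanol and at 55.4 and 57.7 CPM with 4-OHT. Cdkn1c (chr7:143458339-143461059), the cyclin-dependent kinase inhibitor p57, was at 132 and 114 CPM in ethanol and at 148 and 160.06 CPM with 4-OHT. Both are maternally expressed and their groups did not overlap. Phlda2 rose 1.81-fold (log2 fold change 0.84, SE 0.08, adjusted p = 0.0003) and Cdkn1c 1.25-fold (0.32, SE 0.08, adjusted p = 0.0279). The Cdkn1c call rested on ethanol library B: without it the log2 fold change was 0.22 (limma adjusted p = 0.163, edgeR 0.135). Slc22a18, a transporter gene between the 2, had overlapping groups at 2.94 and 2.18 CPM in ethanol and 1.85 and 2.86 CPM with 4-OHT, from 13 to 19 reads a library. Nap1l4, a histone chaperone gene 10433 bases from Phlda2, was at 274 and 278 CPM in ethanol and at 264 and 268 CPM with 4-OHT (adjusted p = 0.599). Phlda2 minus Nap1l4 was 0.89 (SE 0.10), so the rise of Phlda2 was not shared by this neighbour to the same extent. Kcnq1ot1, the paternal noncoding RNA whose promoter is the control region, rested on 12 and 11 reads for ethanol against 20 and 23 for 4-OHT, that is 1.86 and 1.72 CPM against 2.84 and 3.66 CPM. Its groups did not overlap, and the log2 fold change of 0.60 (SE 0.21) did not pass (adjusted p = 0.107). At the other end of the cluster Cd81, a tetraspanin gene of the cell surface, was at 438 and 424 CPM in ethanol and at 328 and 342 CPM with 4-OHT. Cd81 fell 1.29-fold (log2 fold change -0.36, SE 0.05, adjusted p = 0.0024). Tssc4, which starts 485 bases beyond it, was at 56.1 and 56.6 CPM and then at 47.0 and 47.5 CPM (log2 fold change -0.25, adjusted p = 0.0762).

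Magel2 was the 1 called gene of the 6 measured in the Snrpn-Ube3a region of chromosome 7, where paternally expressed genes and the maternally expressed Ube3a lie. Magel2, a partner of E3 ubiquitin ligases, was at 4.18 and 3.90 CPM in ethanol and at 9.24 and 7.47 CPM with 4-OHT, from 25 to 65 reads a library. It rose 2.07-fold (log2 fold change 0.89, SE 0.19, adjusted p = 0.0149), and the call was lost with DESeq2 (adjusted p = 0.131). Ndn, a related MAGE-family gene 27050 bases away, was at 40.0 and 35.7 CPM in ethanol and at 33.5 and 31.5 CPM with 4-OHT (adjusted p = 0.228). Ndn minus Magel2 was -1.10 (SE 0.21), although both are expressed from the paternal copy. Mkrn3, a ring-finger gene, was at 6.35 and 7.18 CPM and then at 8.81 and 7.31 CPM (adjusted p = 0.508). Peg12 was at 10.5 and 12.01 CPM in ethanol and 12.5 and 11.6 CPM with 4-OHT, with overlapping groups. Ube3a, the ubiquitin ligase lost in Angelman syndrome, overlapped too, at 102 and 94.4 CPM against 87.8 and 102 CPM. Snrpn, a splicing protein gene, had 4 to 7 reads a library, close to the 3 reads taken as the floor. The overlapping Snurf row held 19.2 and 19.2 CPM in ethanol and 23.3 and 18.9 CPM with 4-OHT, so Snrpn reads may be split and its level is uncertain.

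Plagl1 and Grb10, each described as a single locus here, both rose. Plagl1 (chr10:13090832-13131694), a paternally expressed zinc-finger transcription factor, was at 74.9 and 78.3 CPM in ethanol and at 110 and 116 CPM with 4-OHT. Grb10 (chr11:11930499-12037428), an adaptor that dampens insulin and growth factor signalling and is maternally expressed in most tissues, was at 496 and 549 CPM in ethanol and at 761 and 733 CPM with 4-OHT. Groups were separate in both. Plagl1 rose 1.48-fold (log2 fold change 0.55, SE 0.07, adjusted p = 0.000798) and Grb10 1.43-fold (0.52, SE 0.06, adjusted p = 0.000663). Near Grb10, Ddc, the decarboxylase that makes dopamine and serotonin, was at 8.68 and 7.33 CPM in ethanol and 13.4 and 12.1 CPM with 4-OHT and also rose (log2 fold change 0.61, adjusted p = 0.0428). On the other side Cobl, an actin nucleator gene, fell from 44.6 and 45.4 CPM to 25.7 and 19.9 CPM (log2 fold change -0.96, adjusted p = 0.00101).

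The Peg3 and Peg10-Sgce clusters had no call with limma. Peg3, a paternally expressed zinc-finger gene, was at 202 and 207 CPM in ethanol and at 184 and 168 CPM with 4-OHT (log2 fold change -0.22, SE 0.06, adjusted p = 0.0585; edgeR adjusted p = 0.0149). Usp29, a deubiquitinase gene that starts 96 bases from Peg3 on the other strand, was at 8.83 and 8.27 CPM and at 10.5 and 7.79 CPM, with overlapping groups. Zim1, a maternally expressed zinc-finger gene, rested on 5 and 9 reads for ethanol against 14 and 8 for 4-OHT. In the second of these clusters Peg10, derived from a retrotransposon and needed in the placenta, overlapped between groups at 977 and 1021 CPM against 1021 and 947 CPM. Sgce, the sarcoglycan gene 101 bases from it, was at 19.995 and 22.0 CPM in ethanol and at 14.8 and 17.0 CPM with 4-OHT (log2 fold change -0.38, SE 0.13, adjusted p = 0.106; edgeR adjusted p = 0.0375). Ppp1r9a, a neuronal actin-binding gene, was at 47.4 and 52.4 CPM and at 45.3 and 39.7 CPM (adjusted p = 0.183). Sgce and Ppp1r9a were below ethanol in both 4-OHT libraries, as were 25.7% of all genes.

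Of the 7 members at the other loci, none passed with limma. Zdbf2, a paternally expressed zinc-finger gene, was at 155 and 155 CPM in ethanol and at 173 and 183 CPM with 4-OHT (log2 fold change 0.20, SE 0.06, adjusted p = 0.0629; edgeR adjusted p = 0.0276). Slc38a4, an amino acid transporter gene, was at 195 and 211 CPM in ethanol and at 173 and 177 CPM with 4-OHT (log2 fold change -0.21, adjusted p = 0.0573; edgeR adjusted p = 0.0154). Impact, a regulator of translation, was at 220.4 and 231.5 CPM and at 191 and 205 CPM (log2 fold change -0.19, adjusted p = 0.0821; edgeR adjusted p = 0.0312). These groups did not overlap for any of the 3, which also held for 52.1% of all genes. Nnat, a small membrane protein gene inside an intron of Blcap, was at 78.3 and 82.1 CPM and at 77.5 and 80.1 CPM. Gnas, the stimulatory G protein locus whose transcripts differ in the copy they use, was at 485 and 476 CPM and at 492 and 467 CPM. Zrsr1, a splicing factor gene inside Commd1, was at 18.6 and 18.4 CPM and at 19.3 and 15.6 CPM, and Commd1 was at 38.6 and 43.1 CPM and at 31.8 and 44.8 CPM. The groups of these 4 overlapped, and Gnas was the closest of all members to no change, at -0.0039 on the log2 scale (SE 0.05).

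**Figure D3:**
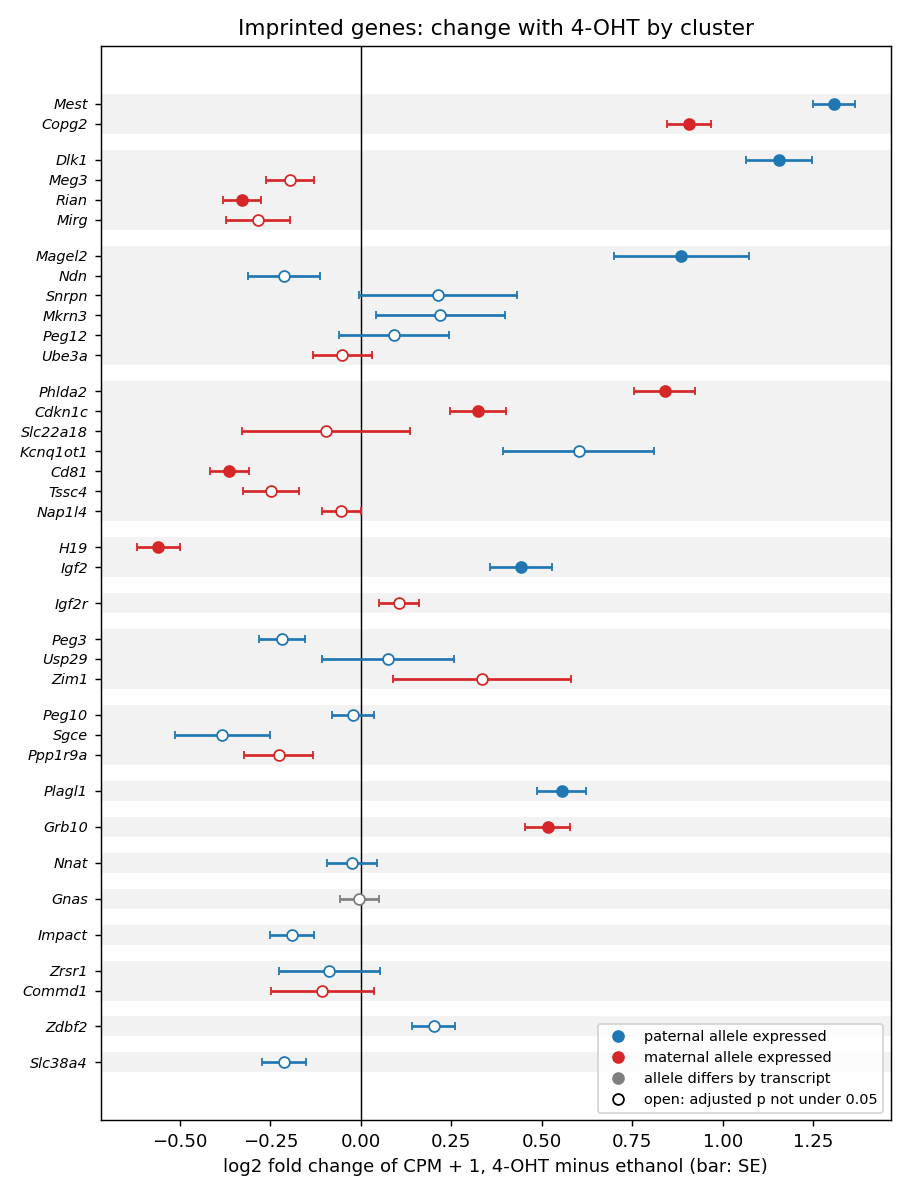
Change of each member on the log2(CPM + 1) scale, 4-OHT minus ethanol, with bars for the SE and shaded bands for clusters. Blue marks paternal, red maternal and grey transcript-dependent expression, and filled points had an adjusted p under 0.05. The filled points run from H19 at -0.56 to Mest at 1.31.

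Grouped by the expressed copy, 5 of 19 paternally expressed members rose and none fell with limma, and edgeR called 6 higher and 4 lower. Among 17 maternally expressed members 4 rose and 3 fell with limma, and edgeR called 4 and 5. DESeq2 called 3 paternal members higher and 0 lower, and 4 maternal members higher and 3 lower. Over all genes limma called 9.46%, 5.24% higher and 4.22% lower. The median log2 fold change was 0.09 for the paternal and -0.10 for the maternal genes. Without the maternal genes whose imprinting is limited to some tissues, 3 of 10 rose, 2 fell, and the median was 0.0045. Rises and falls therefore occurred for maternal genes with every tool and for paternal genes with edgeR alone. A difference between the copies was not tested. Over all members edgeR called 10 higher and 9 lower of 35 tested, beside 15.8% of the 12961 genes it tested, 8.12% higher and 7.63% lower. DESeq2 called 7 members higher and 3 lower, beside 5.07% of all genes it tested, 2.77% higher and 2.30% lower. The 7 added by edgeR were Zdbf2 above and Sgce, Mirg, Peg3, Slc38a4, Meg3 and Impact below ethanol.

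Of 22 neighbouring pairs, 19 had both genes measured. The log2 fold changes had the same sign in 9 pairs and opposite signs in 10. Of the opposite ones, those with Snrpn, Slc22a18 or Zim1 rest on few reads, and some genes enter more than 1 pair. Both genes were called in 2 pairs, Mest with Copg2 in 1 direction and H19 with Igf2 in opposite ones. In 9 pairs 1 gene was called and in 8 none. With 2 libraries a group, the smallest p of an exact two-sided permutation test of a pair's difference is 0.333, which 16 pairs reached (0.396 after Benjamini-Hochberg adjustment over the 19), so no pair could pass. The differences with their SE are therefore given as sizes.

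**Figure D4:**
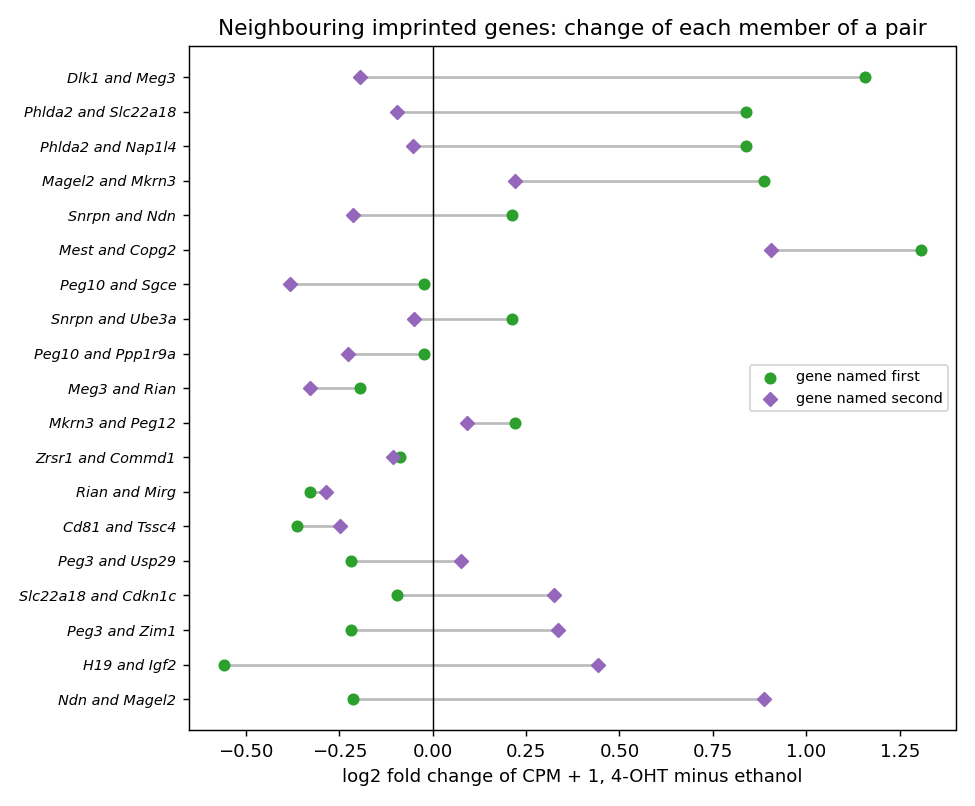
Change on the log2(CPM + 1) scale, 4-OHT minus ethanol, of the gene named first (green circle) and second (purple diamond) in each of the 19 pairs, joined by a line and ordered by the difference. Mest and Copg2 are the 1 pair with both points far right of 0, and 10 lines cross 0.

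The share of called genes near the clusters was close to that of all genes. Within 250 kb of a member, 82 other genes were measured, 5 rose and 2 fell (8.54%, beside 9.46% of all genes). Beyond those given above, Col1a2, a fibrillar collagen gene 132806 bases from Sgce, was at 19.7 and 22.0 CPM in ethanol and at 47.5 and 42.4 CPM with 4-OHT (log2 fold change 1.07, SE 0.11, adjusted p = 0.0003). Asb4, an imprinted gene beyond Ppp1r9a, was at 0.775 and 1.25 CPM and at 2.56 and 2.38 CPM (adjusted p = 0.0484). Sod2, the mitochondrial superoxide dismutase gene near Igf2r, was at 98.3 and 94.4 CPM and at 122 and 122 CPM (log2 fold change 0.33, adjusted p = 0.008). Cars, a transfer RNA synthetase gene 7347 bases from Nap1l4, was at 139 and 135 CPM and at 156 and 166 CPM (log2 fold change 0.23, adjusted p = 0.0395).

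A list of 58 further genes described as imprinted had 41 measured members, 4 higher (Asb4, Ddc, Dhcr7 and Cars) and 2 lower (Cobl and Dact2). Whether they are imprinted in ESCs was not measured, and the list was not split by tissue. Dhcr7, the last enzyme of cholesterol synthesis, was at 65.9 and 70.04 CPM in ethanol and at 91.7 and 89.2 CPM with 4-OHT (log2 fold change 0.41, adjusted p = 0.00514). Dact2, a Wnt pathway regulator, was at 30.7 and 23.9 CPM and at 13.6 and 17.2 CPM (log2 fold change -0.78, adjusted p = 0.0109). The share called was 14.6%, beside 9.46% of all genes, and the median log2 fold change was 0.06, beside -0.0016. Asb4, Ddc, Cars and Cobl, 4 of these 6 called genes, are also among the 7 called near the clusters.

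The genes that write, protect and erase the methylation of imprints were measured in full, 31 of 31, and 5 rose and none fell with limma (16.1%, beside 9.46% of all genes called and 5.24% higher). Dnmt3a, a de novo methyltransferase, was at 228 and 210.4 CPM in ethanol and at 489 and 486 CPM with 4-OHT (log2 fold change 1.15, SE 0.06, adjusted p = 3.93e-06). Dppa3, which protects the maternal genome from demethylation in the zygote, was at 4.96 and 4.99 CPM and at 14.9 and 18.8 CPM (log2 fold change 1.57, SE 0.17, adjusted p = 0.000441). Dnmt3l, the cofactor of the de novo enzymes, was at 413 and 401 CPM and at 582 and 554 CPM (log2 fold change 0.48, adjusted p = 0.000514). Tet1 and Tet2, which oxidise methylated cytosine, rose by 0.44 (adjusted p = 0.00336) and 0.33 (adjusted p = 0.0442) on the log2 scale. The factors that hold imprints in place stayed closer to their ethanol level: Zfp57 was at 224 and 220.3 CPM and at 232 and 232 CPM (adjusted p = 0.546), and Trim28 at 2332 and 2249 CPM and at 2541 and 2481 CPM (adjusted p = 0.176). Dnmt1 was at 607 and 617 CPM and at 549 and 538 CPM (log2 fold change -0.17, adjusted p = 0.068; edgeR adjusted p = 0.03). Uhrf1 was at 538 and 532 CPM and at 493 and 490.3 CPM (adjusted p = 0.178). edgeR also called Ehmt2 and Eed lower, beside Dnmt1. No value here measures methylation.

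Markers of other cell types moved with the treatment too, and their part in the values above was not tested. The shares called are to be read beside 9.46% of all genes, 5.24% higher and 4.22% lower. Of 24 feeder fibroblast markers 19 were measured, 2 rose (Col1a2 and Thy1) and 2 fell (Col5a2 and Tagln), and their summed level was 978 and 949 CPM in ethanol and 839 and 806 CPM with 4-OHT. Tagln, a smooth muscle actin-binding gene, carried this difference: the other 18 summed to 329 and 324 CPM in ethanol and to 354 and 341 CPM with 4-OHT, and 11 of the 19 had a log2 fold change above 0. Of 15 trophoblast markers 12 were measured, with Cdx2 higher and Krt8, Krt7, Plet1 and Fgfr2 lower, and a sum of 334 and 307 CPM against 279.7 and 277 CPM. Primitive endoderm markers (11 of 13 measured, 1 higher and 3 lower) summed to 647 and 644 CPM against 648 and 600.01 CPM. Of the 11 neural progenitor markers measured, 9 rose and 1, Nes, fell with limma, with a sum of 375 and 381 CPM against 437 and 414 CPM. For these markers edgeR called 8 higher and 2 lower of 10 tested, and DESeq2 6 higher and 1 lower. No measured marker of these lists was at 0 in both libraries of a group.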

How the data were processed

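PolyA RNA of 4 samples was sequenced, 2 given ethanol and 2 given 4-OHT. Per the labels' protocols, some libraries may be from a TruSeq RNA v2 kit and others from a stranded TruSeq mRNA kit. Which was used for which is not said, so kit and treatment cannot be told apart. The submitters' processing notes name mm10 as the build and the tools HISAT2, Trimmomatic, FastQC and edgeR. No counter, annotation or strand setting is given in the sources used here. Per the file headers, the authors deposited each group's mean CPM, an adjusted p-value and a log2 fold change.

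Of these, the log2 fold changes and p-values deposited by the authors were set aside, since their order does not follow the genes: sorted by Entrez number as text, the adjusted p fell in 0 of 14381 steps, and Spearman's rho of the log2 fold change with the log2 ratio of a gene's own mean CPM was 0.018. Whole reads of each library were recovered from the deposited mean CPM: 100% of the values were sums of 2 whole reads times the steps of the 2 libraries, to the printed digits. For ethanol 99.7% and for 4-OHT 99.95% of the values allowed a single pair of reads, every member included. Several pairs were possible for 41 and 7 values, of which 35 and 7 were settled, and 6 genes were left out. One read was worth 0.142 to 0.159 CPM. Floors cover counting error only, as PCR copies are not separate molecules.

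limma-trend 3.58.1 (R 4.3.3) was fitted to log2(CPM + 1) of all 14376 genes, with 4-OHT minus ethanol as the contrast. Its two-sided p-values were adjusted by Benjamini-Hochberg over all genes, and low values were not filtered. Fold changes on this scale understate those of low genes, and linear folds are ratios of mean CPM. An adjusted p with no tool named is limma's. As an alternative, edgeR 4.0.16 (quasi-likelihood, filterByExpr) on the recovered reads called 1053 genes higher and 989 lower of 12961. Others were DESeq2 1.42.0 (382 higher and 318 lower of 13801), its size factors, pseudocounts of 0.1 and 4, a minimum level and leaving out each library. The limma and edgeR fits were tested on simulated data with the same dispersion for every gene. Changes were placed only in genes above a minimum level, so the simulation does not cover calls of the lowest genes. The SE of a difference between 2 genes is the root of the summed squares of their SEs and ignores their covariance.

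The members, lists, pairs and clusters were chosen with earlier results of these data known. Every member is given, plus called genes of the lists and windows and Arid1a, Zfp57, Trim28, Dnmt1 and Uhrf1. Cep41, Klf14, Ehmt2, Eed, Igf2os, Snurf, Rtl1 and Dio3 were named after their values were seen. Gene coordinates, promoters and microRNAs are from RefSeq (GRCm38.p6), 1-based, and symbols came from the table for 13626 genes and from RefSeq for 746.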

Additional observations from a re-analysis of the deposited data

How the results depend on the processing

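Other settings mostly moved the count of falls. The 12 called members became 19 with edgeR and 19 when genes with a mean log2(CPM + 1) under 1 were left out. The 3 falls became 9, 9 and, with a pseudocount of 4, 5. Over all genes the share called rose too, from 9.46% to 15.8%, 15.2% and 10.3% in the same order of settings. The share of falls over all genes went from 4.22% to 7.63%, 7.35% and 4.63%. The called paternal members went from 5 to 10 with edgeR, the clusters with a called member from 7 to 12, the maintenance genes from 5 to 8 and the genes near clusters from 7 to 11, or to 3 within 100 kb. With limma, leaving out 1 library gave 0 to 12 called members, 0 to 9 rises and 0 to 4 falls. The 0 came without 4-OHT library A or B, where limma called 0 of 14376 genes. In those runs edgeR, chosen after seeing the data, still made calls, among members and among all genes. The lone library of a group is there assumed to vary like the other group. Pairs of opposite sign numbered 7 to 13 without 1 library, beside 10. No paired analysis was possible because the group mean columns carry no replicate numbers.

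With edgeR, 11 of the 12 called members passed in all 4 runs that left out a library, Cdkn1c being the exception, and DESeq2 lost Magel2 and Igf2. No member called by limma changed sign under any setting run. Snrpn, Zim1, Slc22a18 and Kcnq1ot1 had 4 to 23 reads a library, and none of their differences passed at this depth.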

Other observations

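Of the measured genes that overlap a member on the other strand, those given here did not pass the test, and they were chosen after their values were seen. Peg3os, opposite Peg3, was at 28.2 and 30.6 CPM in ethanol and at 25.02 and 28.1 CPM with 4-OHT (adjusted p = 0.486). Gnasas1, opposite part of Gnas, was at 2.17 and 2.81 CPM and at 2.70 and 3.02 CPM (adjusted p = 0.723). R74862, opposite Cd81, was at 21.5 and 24.8 CPM and at 20.5 and 20.3 CPM (adjusted p = 0.436), while Cd81 itself fell. Snhg14, the long transcript that runs through Snrpn and opposite Ube3a, was at 43.2 and 46.5 CPM and at 38.7 and 46.4 CPM (adjusted p = 0.701). Blcap, opposite Nnat, was at 22.9 and 27.1 CPM and at 26.6 and 27.02 CPM (adjusted p = 0.667). Without a known strand setting, reads of such partners cannot be assigned with certainty.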
